A study of Mus musculus with 7 samples.

Results

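The CXC chemokines and fractalkine (Cx3cl1) were examined in single cells of young and aged mouse mammary glands. The 10 genes, Cxcl1, Cxcl2, Cxcl9, Cxcl10, Cxcl12, Cxcl13, Cxcl14, Cxcl15, Cxcl16 and Cx3cl1, were taken by symbol from a matrix of 27998 genes. Each of them was detected, with between 1322 (Cxcl13) and 90023 (Cxcl1) unique molecular identifiers (UMIs) over 13684 cells. The cells came from 3 young mice of 3 to 4 months (Young A to C) and 4 aged mice of 13 to 14 months (Aged A to D). All mice were untreated nulliparous females in diestrus, their background was mixed (FVB, 129 and C57BL/6J), and their #4 mammary glands were dissociated after the lymph nodes had been taken out. Each mouse gave 1 droplet library of 3′ mRNA ends, so a level refers to cells that survived dissociation. The cell types are those assigned by the authors and comprise myoepithelial cells, 3 luminal types (hormone-sensing, HS; secretory alveolar, AV; and HS-AV), fibroblasts, vascular and lymphatic endothelial cells, pericytes, Ma and Mb macrophages, dendritic cells, NK cells, and T and B cells.

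Chemokines are small secreted proteins that bind receptors on leukocytes and set the direction in which these cells move. Cxcl1, Cxcl2 and Cxcl15 carry the ELR motif and attract neutrophils, Cxcl1 and Cxcl2 through the receptor Cxcr2. Cxcl9 and Cxcl10 are induced by interferons and attract T and NK cells through Cxcr3. Cxcl12, the ligand of Cxcr4, and Cxcl13, the ligand of Cxcr5, are made constitutively by stromal cells, and Cxcl14 is an epithelial chemokine. Cxcl16 and Cx3cl1 are made as transmembrane proteins, bind Cxcr6 and Cx3cr1, and are released from the surface by the proteases Adam10 and Adam17.

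Of the 10 genes, 6 lie on chromosome 5 of the mouse genome (GRCm38, GENCODE vM21). Cxcl15 (90794534 to 90803067), Cxcl1 (90891241 to 90893115) and Cxcl2 (90903871 to 90905938) are neighbours on the plus strand. Cxcl9 (92321347 to 92328079) and Cxcl10 (92346638 to 92348889) lie together on the minus strand, and Cxcl13 (95956951 to 95961068) lies apart on the plus strand. Cxcl12 is on chromosome 6 (117168535 to 117181367), Cx3cl1 on chromosome 8 (94772009 to 94782427), Cxcl16 on chromosome 11 (70453983 to 70459984) and Cxcl14 on chromosome 13 (56288643 to 56296551). Below are the 250 bases before the start site of the 3 genes whose promoters held the letters GGGANNTTCC, a form of the site bound by NF-kB, in the RefSeq promoter table (GRCm38.p6). They are shown because Cxcl1 and Cxcl2 changed most in myoepithelial cells and Cxcl10 in AV cells among the members. Capitals mark GGGANNTTCC on either strand, and in Cxcl10 also GAAANNGAAA, a form of the interferon-stimulated response element.
Cxcl1 (chr5:90890995-90891244, plus strand): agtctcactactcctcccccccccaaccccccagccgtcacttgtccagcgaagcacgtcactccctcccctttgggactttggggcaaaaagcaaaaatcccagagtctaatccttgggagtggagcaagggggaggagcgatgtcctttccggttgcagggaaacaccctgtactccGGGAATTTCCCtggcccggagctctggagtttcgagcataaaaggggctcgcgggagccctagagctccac
Cxcl2 (chr5:90903649-90903898, plus strand): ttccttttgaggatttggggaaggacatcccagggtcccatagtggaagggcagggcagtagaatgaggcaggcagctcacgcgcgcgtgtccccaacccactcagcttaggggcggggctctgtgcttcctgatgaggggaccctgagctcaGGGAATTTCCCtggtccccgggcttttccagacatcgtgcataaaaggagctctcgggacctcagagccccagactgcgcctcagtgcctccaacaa
Cxcl10 (chr5:92348890-92349139, minus strand): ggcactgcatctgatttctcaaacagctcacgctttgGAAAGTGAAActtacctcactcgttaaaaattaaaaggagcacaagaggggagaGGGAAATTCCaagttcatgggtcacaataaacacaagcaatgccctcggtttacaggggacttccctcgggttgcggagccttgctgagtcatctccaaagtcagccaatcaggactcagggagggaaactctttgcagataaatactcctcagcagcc
Cxcl1 and Cxcl2 held the same 10 letters, GGGAATTTCC, beginning at -71 and -97 from the start site. On the opposite strand the motif overlapped these by all but 1 base, which gives the run of capitals its length. In Cxcl10 the matches began at -159 (GGGAAATTCC) and -213 (GAAAGTGAAA). Both motifs were searched on both strands of 300 bases, 250 before and 50 after the start. GGGANNTTCC was found in 441 of 27025 gene symbols of the table (1.63%), GGGAATTTCC in 29 (0.107%) and GAAANNGAAA in 1079 (3.99%), which besides Cxcl10 included Cxcl14. Of the members 9 were in the table, and Cxcl16 was not. A match says only that these letters are present.

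The mice gave 1264 to 2865 cells and 6652599 to 16999625 UMIs each. A median cell held 4758.5 to 5253.0 UMIs in young and 5582.0 to 7109.5 in aged mice, and its mitochondrial share was 3.18% to 3.68% in young and 2.48% to 2.82% in aged mice. In all, 101 cell barcodes occurred in more than 1 mouse. Cell names were written in another format for aged than for young mice and no library date was given, so an effect of age cannot be told apart from one of how the libraries were processed. Levels are CPM, the UMIs of a gene scaled to a common total, from the sum of all cells of 1 type in 1 mouse, for mice with at least 3 such cells. Age was tested with edgeR's quasi-likelihood test on these sums over all genes of a cell type, with TMM scaling, and calls needed a 1.5-fold change together with a p, adjusted by Benjamini and Hochberg, below 0.05. Log2 changes are aged minus young from this fit, and since the printed CPM carry no TMM factors, the ratio of mean CPM can differ from them. Statements on whether the groups overlap describe the same mice as the fit and are no further support for a call. The share of all genes without overlap is not given. A type could be tested in 8 cases. In T and B cells 0 of the 10 genes passed the filter on low counts, so 7 types remained, and 48 of the 80 combinations of gene and type were tested. Defining markers were highest in the type they mark for myoepithelial cells (Krt5, Krt14, Krt17), AV cells, fibroblasts, vascular endothelial cells, pericytes and Mb macrophages (Mmp12, Mmp13, Spic), and the HS markers were shared by HS and HS-AV cells. Pericytes came next for the vascular endothelial markers. Pecam1 had a mean of 501 CPM there against 695 in endothelial cells, Cdh5 325 against 524 and Sox17 135 against 261. The part of endothelial RNA in the pericyte levels was not tested. Of the neutrophil markers, Ly6g had 0 CPM in every type and S100a8 at most 3.97 CPM as a mean over mice, while Csf3r, which macrophages also express, had 36.2 CPM in Mb macrophages.

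Each chemokine had its own order of cell types (plot of levels by type). The types had been found by clustering all genes, so these orders are given without a test. They are of types measured in at least 5 mice, and their means pool both ages. Cxcl2 was highest in Mb macrophages (25046 ± 18067 CPM, mean ± SD, n = 7), above myoepithelial cells (1257 CPM), the next of these types, in 7 of 7 mice. Myoepithelial cells had means of 30.5 CPM in young and 2177 CPM in aged mice. Ma macrophages, left out of the order, had 4508 CPM in the 3 young mice. Cxcl1 was spread over many types. Its mean was 3402 CPM in Mb macrophages, 1829 in myoepithelial cells, 1777 in fibroblasts and 1280.0 in pericytes. The order of neighbours held in 6, 2 and 5 of 7 mice. In young mice myoepithelial cells had 19.7 to 107 CPM and lay below fibroblasts, with 843 to 2258 CPM. In aged mice the 2 types overlapped, at 1943 to 5533 and 631 to 3431 CPM. Cxcl14 was a myoepithelial gene, with 2863 ± 630.5 CPM against 238.9 ± 144 in fibroblasts, the next type (higher in 7 of 7 mice). Cxcl15 marked the hormone-sensing lineage, with 734 ± 271 CPM in HS and 571 ± 324 in HS-AV cells (n = 6), and was under 40 CPM in most other types. It was higher in HS than in HS-AV cells in 6 of 6 mice. Cxcl9 was led by vascular endothelial cells (337 ± 169 CPM), followed by pericytes (127.9 ± 97.4; higher in 7 of 7 mice). Cxcl10 had means of 2604 CPM in Mb macrophages, 507 in pericytes and 478 in vascular endothelial cells. Mb lay above pericytes in 3 and pericytes above endothelial cells in 2 of 7 mice. Young Mb macrophages had 94.3 to 399 CPM, below young pericytes with 430 to 1366. Aged Mb macrophages had 511 to 9416 CPM and aged pericytes 94.3 to 758. Cxcl12 came from pericytes (664 CPM), fibroblasts (441), vascular endothelial cells (274) and myoepithelial cells (120.8), neighbours whose order held in 5, 4 and 5 of 7 mice. Fibroblasts and endothelial cells changed order with age. Endothelial cells were higher in each young mouse, at 374 to 655 against 253 to 387 CPM. Fibroblasts were higher in each aged mouse, at 342 to 656 against 76.3 to 122 CPM. Cxcl13 was a fibroblast gene, with 173 ± 149 CPM and under 10 CPM in the other types measured in at least 5 mice. Cxcl16 was highest in Mb macrophages (1278 ± 274 CPM) and dendritic cells (776 ± 557, n = 5), ahead of AV cells (188.7). Cx3cl1 had means of 68.7 CPM in myoepithelial and 68.2 CPM in AV cells, with the first higher in 3 of 7 mice.

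**Figure D1:**
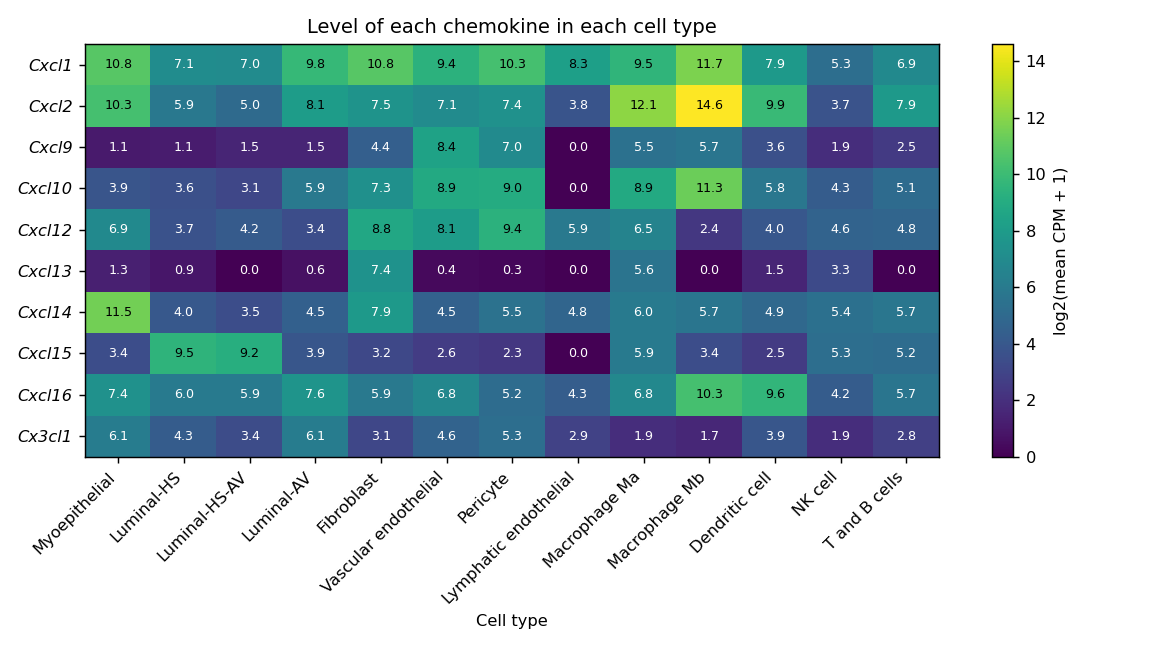
Colour and number give log2 of the mean CPM plus 1 of each of the 10 chemokines (rows) in each of the 13 cell types (columns), averaged over the mice with at least 3 cells of the type. Cxcl2 is highest in Mb macrophages, Cxcl14 in myoepithelial cells, Cxcl15 in HS and HS-AV cells, Cxcl9 in vascular endothelial cells and Cxcl13 in fibroblasts.

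Shares of cells with at least 1 UMI were compared at 2000 UMIs per cell, a depth every cell reached. Cxcl14 was seen in 92.6% of myoepithelial cells and in 1.12% of HS cells (97.7% and 4.54% as deposited, median depths of 4431 and 7277 UMIs). Cxcl15 was seen in 63.1% of HS cells and in 1.10% of vascular endothelial cells (89.2% and 2.53% as deposited, median depths of 7277 and 4907 UMIs). For Cxcl9 the shares were 35.3% of vascular endothelial cells and 0.140% of HS cells (50.3% and 0.702% as deposited). Cxcl2 was found in 94.5% of Mb macrophages and 0 of 40 NK cells after thinning, and in 5.0% of NK cells as deposited. Low shares of a chemokine in a type that lacks it can be free RNA in the droplets, and such shares are read here as background.

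In the young mice, which alone had enough Ma macrophages, the 2 macrophage types held several chemokines at different levels. Cxcl16, the ligand of Cxcr6, had 121.5, 111.8 and 102.1 CPM in Ma and 1080.1, 977 and 1154 CPM in Mb macrophages of Young A, B and C. Cxcl2 was higher in Mb in each of these mice too (3279.7, 5322 and 4923 CPM in Ma, 6071, 11909.6 and 8501 in Mb). Cxcl9 was higher in Ma in each (50.6, 55.9 and 23.8 CPM against 3.85, 0 and 10.8), as was Cxcl12 (121.5, 111.8 and 44.3 against 28.9, 0 and 0). Young A, B and C had 40, 20 and 61 Ma and 90, 16 and 18 Mb macrophages, so the low values rest on few UMIs. Fibroblast markers were also present in Ma macrophages. Col1a2 and Col3a1 had means of 195 and 275 CPM there against 1971 and 1970 in fibroblasts, a type that holds Cxcl12. The part of such RNA was not tested. These are descriptions, since the clusters had been separated on the same genes.

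With age the neutrophil-attracting chemokines Cxcl1 and Cxcl2 rose in myoepithelial cells, the contractile basal layer of the ducts, with the largest log2 changes among the 7 types. Cxcl1 had 59.5, 19.7 and 107 CPM in the young and 2656, 2484, 1943 and 5533 CPM in the aged mice, a log2 change of 5.74, SE 0.49, adjusted p = 1.19e-06, or 53.4-fold. Cxcl2 went from 21.7, 4.92 and 64.9 CPM to 1809.8, 1561, 837 and 4501 CPM (6.32, SE 0.66, adjusted p = 7.69e-06), or 79.7-fold. Every aged mouse lay above every young mouse for both, and the lowest aged value was over 10 times the highest young one. At 2000 UMIs per cell, Cxcl1 was seen in 6.81% ± 1.60 of young and 58.6% ± 7.66 of aged myoepithelial cells (mean ± SD over mice), and Cxcl2 in 3.72% ± 3.70 and 35.5% ± 10.3. As deposited the shares were 13.8% and 68.5% for Cxcl1 and 5.88% and 43.5% for Cxcl2. In T and B cells (60 in all) the thinned shares were 0% in young and 14.0% in aged mice for either gene, at a median of 4391.5 UMIs against 4431 in myoepithelial cells. Cxcl1 had means of 7.18 CPM in young and 204 CPM in aged mice in these cells, with all aged mice higher. Cxcl2 had 32.3, 12.2, 1540.5 and 84.3 CPM in T and B cells of the aged mice, so these cells give no low background for either gene. Cxcl16, the transmembrane ligand of Cxcr6, rose as well, from 55.7, 44.2 and 68.2 CPM to 228, 209, 297 and 279.5 CPM (2.25, SE 0.25, adjusted p = 1.26e-05). In these cells 27.6% of 6740 genes tested were called in either direction, and 3 of the 7 members tested were called. Cxcl14, the chemokine that these cells hold at a high level, was not called (2509, 3224 and 3224 CPM in young and 3700.4, 2919.9, 2729 and 1733 in aged mice, -0.01, SE 0.22, adjusted p = 0.982), nor was Cxcl12 (-0.08, SE 0.32, adjusted p = 0.885). Cx3cl1 missed the threshold (0.68, SE 0.25, adjusted p = 0.0515). The 3 calls held under all 14 alternatives of the fit, and Cxcl1 stayed between 5.23 and 6.22, Cxcl2 between 5.58 and 7.11 and Cxcl16 between 2.11 and 2.42 on the log2 scale.

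**Figure D2:**
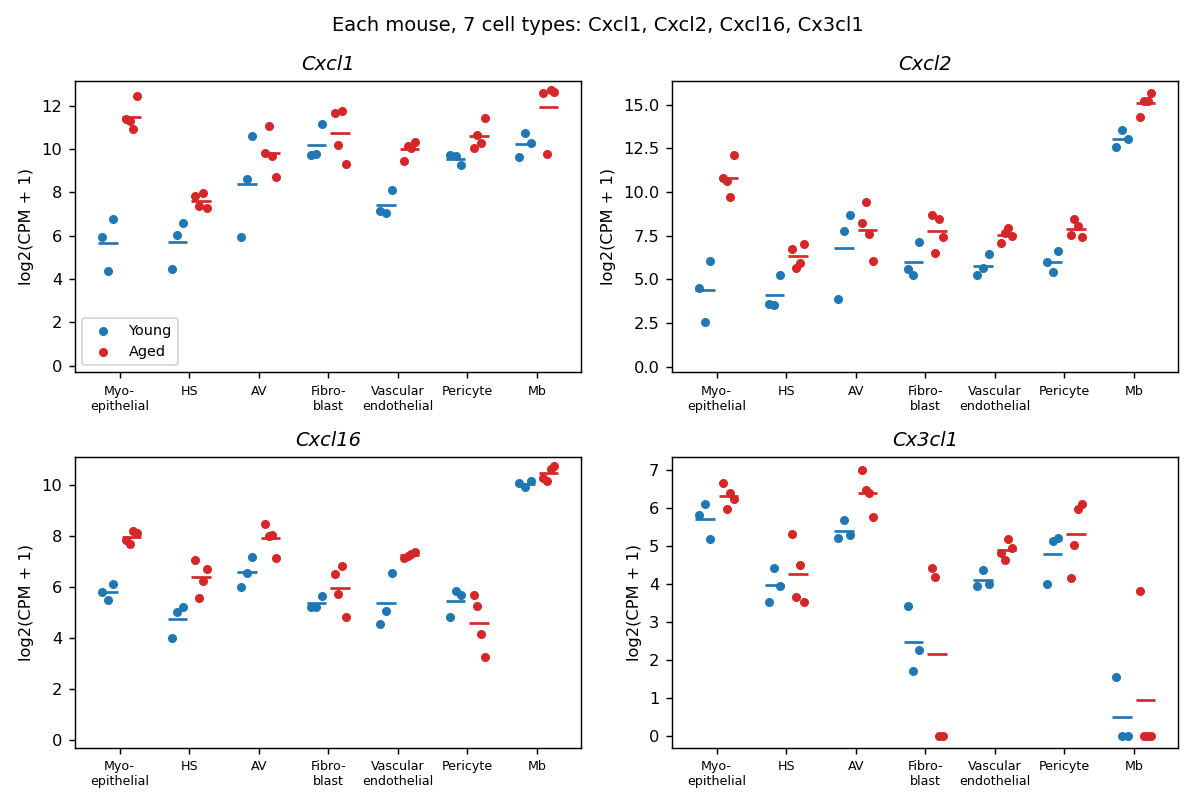
Each point is 1 mouse and shows log2(CPM + 1) of Cxcl1, Cxcl2, Cxcl16 or Cx3cl1 in the 7 cell types tested, with young mice in blue, aged mice in red and lines at the group means of the plotted values. For Cxcl1, Cxcl2 and Cxcl16 in myoepithelial and vascular endothelial cells all aged mice lie above all young mice, while in AV cells the young mice spread from 59.4 to 1540.5 CPM of Cxcl1.

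Cells that were positive for Cxcl1 tended to be positive for Cxcl2. With each cell thinned to 2000 UMIs, of the aged myoepithelial cells with a Cxcl1 UMI 51.9%, 47.7%, 46.5% and 67.2% also had a Cxcl2 UMI in Aged A to D, against 16.98%, 8.41%, 1.85% and 10.2% of the cells without one. The UMIs were also uneven among cells as deposited, at unequal depth. In aged myoepithelial cells the 10% of cells with the most Cxcl2 UMIs held 56.3% to 84.1% of them, and for Cxcl1 46.8% to 65.6%, whereas for Cxcl14 they held 26.9% to 32.3%. These shares are descriptions without a test.

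The marker lists of other cell types were read beside these rises. Macrophage markers, which mark the type richest in Cxcl2, summed to 9.83 to 19.5 CPM in young and 0.919 to 4.62 CPM in aged myoepithelial cells, and those of Mb macrophages (Mmp12, Mmp13, Spic) to 1.89 to 13.0 CPM and to 0 CPM. Both sums were lower in aged mice. Fibroblast markers fell, with 3 of 3 tested called and sums of 49.2 to 187 CPM in young and 3.08 to 25.7 CPM in aged mice. Of the AV markers 1 of 4 was called, Csn3, which rose by 2.63. The part of RNA from other cells in the rises was not tested.

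In vascular endothelial cells 6 of the 8 members tested were called, where 26.7% of 7864 genes were. Cxcl1 had 138, 130.1 and 276 CPM in young and 689.7, 1132, 1076 and 1275 CPM in aged mice (2.90, SE 0.29, adjusted p = 1.36e-05). Cxcl2 followed with 36.4, 48.5 and 85.2 CPM and 137, 198, 242 and 178 CPM (2.16, SE 0.27, adjusted p = 6.97e-05). Cxcl16 rose to nearly the same level in the 4 aged mice, 142, 149, 157 and 167 CPM, from 22.8, 32.1 and 93.5 CPM (2.15, SE 0.36, adjusted p = 0.00064). Cx3cl1, which on endothelium holds monocytes and T cells to the vessel wall, rose from 14.6, 19.6 and 15.1 CPM to 27.5, 23.7, 35.7 and 29.8 CPM (1.16, SE 0.24, adjusted p = 0.00252). For these called genes none of the groups overlapped. Macrophage markers in endothelial cells summed to 9.25 to 22.3 CPM in young and 0 to 3.18 CPM in aged mice. Myoepithelial markers, of the type with 1943 to 5533 CPM of Cxcl1 in aged mice, rose in endothelial cells, to sums of 62.4 to 174.6 CPM against 10382 to 11744 CPM in aged myoepithelial cells themselves. AV cells, with means of 88.3 CPM of Cx3cl1 and 255 CPM of Cxcl16 in aged mice, are another possible source. Of 4 AV markers tested in endothelial cells 1 was called higher and 1 lower, with a median log2 change of 0.94. The part of RNA from these types in the rise of Cxcl1, Cxcl2, Cxcl16 and Cx3cl1 was not tested.

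Cxcl12, which retains Cxcr4-bearing cells in tissues, fell in the same vascular endothelial cells. It had 485, 655 and 374 CPM in young and 76.3, 122, 99.8 and 103 CPM in aged mice (-1.98, SE 0.20, adjusted p = 1.16e-05), a 3.95-fold fall with no overlap of the groups. At 2000 UMIs per cell it was seen in 49.0% ± 5.40 of young and 12.6% ± 3.98 of aged endothelial cells (68.3% and 26.0% as deposited). Markers of other Cxcl12-bearing types fell along with it. Fibroblast markers summed to 26.7 to 109.95 CPM in young and 0.698 to 10.6 CPM in aged mice (2 of 2 tested called), and pericyte markers to 98.6 to 346 CPM and 5.59 to 66.8 CPM (1 of 2 called, Rgs5). Those sums were 5393 to 8164 CPM for the fibroblast markers in young fibroblasts themselves, where Cxcl12 had 287, 387 and 253 CPM, below the endothelial level in each young mouse. The pericyte markers summed to 1088 to 1706 CPM in young pericytes, where Cxcl12 had 464, 756 and 809 CPM, above the endothelial level in 2 of 3 young mice. The part of RNA from either type in the fall was not tested. In fibroblasts Cxcl12 was higher in aged mice without passing the threshold (543, 656, 342 and 622 CPM, 0.93, SE 0.26, adjusted p = 0.0734). The change in endothelial cells minus that in fibroblasts was -2.89 (SE 0.26, adjusted p = 7.86e-07), and minus that in pericytes -1.78 (SE 0.44, adjusted p = 0.00929), in comparisons where 5.7% and 9.64% of genes passed. The second of these did not pass with DESeq2, without Young A or without Aged B, with adjusted p from 1.47e-09 to 0.165 over its alternatives. The differences of age changes were tested as an interaction of age and type with the mouse as a block, and 43 such tests on members were made in 5 pairs of types, of which 16 passed. By pair, 2.41% to 15.3% of all genes passed.

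Cxcl14 rose in vascular endothelial cells from a low level, 8.74, 4.90 and 6.87 CPM, to 48.7, 27.2, 24.1 and 36.2 CPM (2.64, SE 0.33, adjusted p = 6.73e-05). Markers of the type rich in Cxcl14, the myoepithelial keratins, rose beside it in these cells. Of 3 such markers 2 were tested and both were called, Krt14 by 2.48, SE 0.48, adjusted p = 0.00179 and Krt17 by 2.66, SE 0.47, adjusted p = 0.000834, and the list summed to 9.80 to 36.4 CPM in young and 62.4 to 174.6 CPM in aged mice. The part of such RNA in the rise of Cxcl14 was not tested. After thinning, 1.12% of young and 3.71% of aged endothelial cells had a Cxcl14 UMI.

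The chemokines of the interferon group were not called in endothelial cells. Cxcl9 had 349, 573 and 478 CPM in young and 435, 114, 209 and 199 CPM in aged mice (-0.62, SE 0.34, adjusted p = 0.194), and Cxcl10 655, 589 and 460.4 and 818, 333, 148 and 340.2 CPM (-0.12, SE 0.39, adjusted p = 0.847). For both, Aged A lay within the young range or above it, and the groups overlapped.

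**Figure D3:**
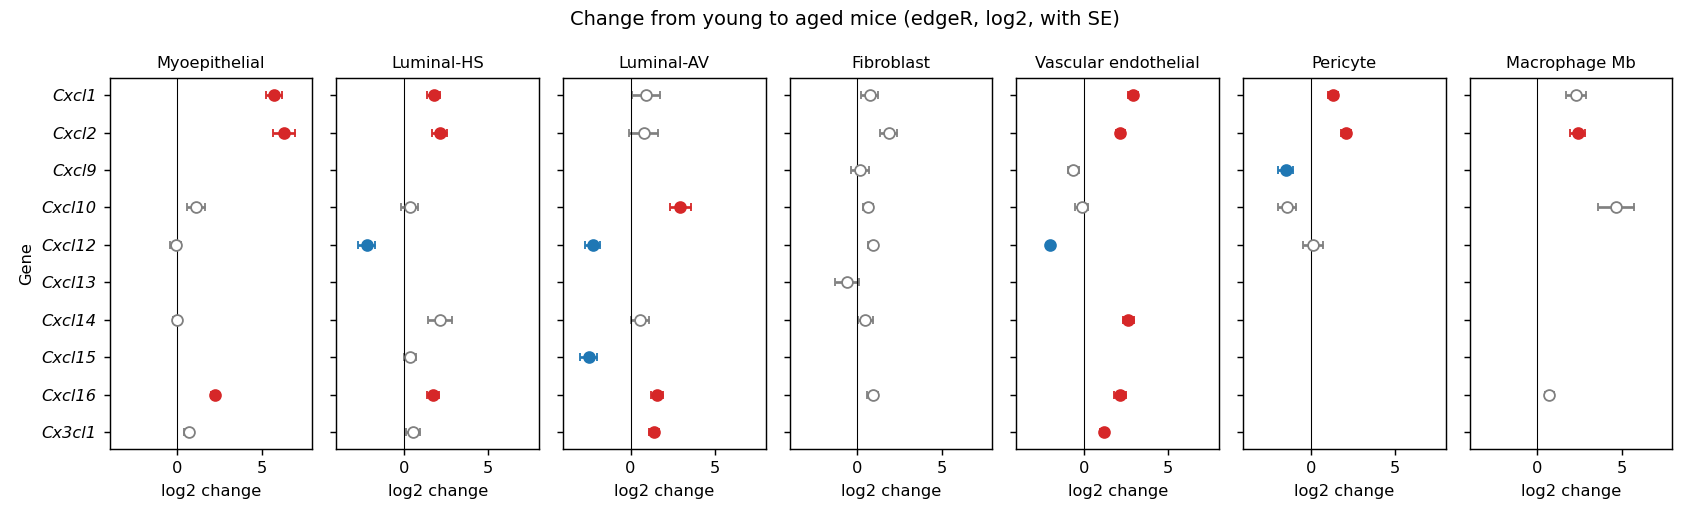
Points are log2 changes from young to aged mice of each chemokine (rows) in the 7 cell types (panels) with their standard errors, from edgeR on 3 young and 4 aged mice. Filled red points were called higher (17), filled blue points called lower (5) and open points did not pass; a missing point was not tested.

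Pericytes, the contractile cells around small vessels, shared the rise of Cxcl1 and Cxcl2. Of 2601 genes tested in pericytes 11.8% were called, and of the 5 members tested 3. Cxcl1 had 839, 807 and 622 CPM in young and 1053, 1616, 1227 and 2796 CPM in aged mice (1.30, SE 0.29, adjusted p = 0.0124). Without Young C it did not pass, with adjusted p from 5.85e-05 to 0.0634 over its alternatives. Cxcl2 rose from 61.8, 42.5 and 96.0 CPM to 185, 344, 260.1 and 172 CPM (2.10, SE 0.31, adjusted p = 0.00143) and passed under all 14. AV markers were higher in aged pericytes beside these rises (2 of 3 tested called, Csn3 and Trf, with sums of 32.0 to 371 CPM in young and 186.6 to 1844 CPM in aged mice). Myoepithelial markers there summed to 4.57 to 66.3 CPM in young and 21.2 to 520.2 CPM in aged mice. The part of either in the rises was not tested. The interferon-induced Cxcl9 fell, from 310.4, 198 and 105 CPM to 84.2, 15.9, 113 and 68.6 CPM (-1.46, SE 0.45, adjusted p = 0.0479), with Aged C above Young C. That call was lost under 8 of 14 alternatives, among them without Young A, Young B, Aged B or Aged D, with adjusted p from 1.20e-05 to 0.235. Vascular endothelial markers, of the type richest in Cxcl9, summed to 1246 to 1365 CPM in young and 547 to 858 CPM in aged pericytes (1 of 3 called, Cdh5, lower), and their part in the fall was not tested. Cxcl10 went from 1366, 598 and 429.9 CPM to 758, 159, 141 and 94.3 CPM without passing (-1.39, SE 0.54, adjusted p = 0.107), with Aged A far above the other aged mice. Cxcl12 ranged from 50.5 to 1351 CPM over the aged mice alone and was not called (0.14, SE 0.58, adjusted p = 0.906).

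In HS cells, which carry the oestrogen, progesterone and prolactin receptors, the same pair rose from low levels. Of 8457 genes 6.26% were called, and of 8 members 4. Cxcl1 had 21.1, 65.3 and 95.4 CPM in young and 224, 164, 251 and 153 CPM in aged mice (1.77, SE 0.40, adjusted p = 0.0289), and Cxcl2 11.3, 10.6 and 36.8 and 105, 49.6, 61.1 and 130.1 CPM (2.11, SE 0.46, adjusted p = 0.0245). Cxcl16 rose from 15.3, 31.8 and 36.6 CPM to 132, 46.2, 74.7 and 104 CPM (1.73, SE 0.36, adjusted p = 0.0206). For these 3 called genes all aged mice were above all young mice, which describes the same values. Each of these calls was lost without some single mouse, and the ranges of adjusted p that follow are over all alternatives. Cxcl1 was lost without Young B, Aged C or Aged D (adjusted p from 9.07e-12 to 0.0837), Cxcl2 without Young A, Young B or Aged D (1.81e-16 to 0.0814) and Cxcl16 without Young A, Young B or Aged D (1.32e-11 to 0.0957). Myoepithelial markers, of a type with far higher Cxcl1 and Cxcl2 in aged mice, rose in HS cells (2 of 2 tested called), with sums of 13.9 to 22.2 CPM in young and 38.0 to 139.6 CPM in aged mice. Of the dendritic cell markers, of a type rich in Cxcl16, 1 was tested and called higher (3.39, adjusted p = 0.0145). The 1 macrophage marker tested was lower without being called (-2.09, adjusted p = 0.0953). The part of RNA from these types in the rises was not tested. Cxcl15, the chemokine that marks these cells, was not called (900.3, 708 and 414 CPM in young and 554, 874, 504 and 1186 in aged mice, 0.37, SE 0.35, adjusted p = 0.567).

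AV cells, the secretory luminal cells, had their own pattern. Of 11012 genes 6.16% were called, and of 8 members 5. Cxcl10 rose from 11.5, 8.99 and 19.0 CPM to 28.0, 166, 126 and 49.8 CPM (2.95, SE 0.61, adjusted p = 0.0205), with no overlap. Cxcl16 rose from 64.1, 93.5 and 144 CPM to 356, 259, 264 and 139.8 CPM (1.58, SE 0.34, adjusted p = 0.0253), with Aged D just below Young C. Cx3cl1 rose from 36.4, 50.4 and 38.0 CPM to 128, 88.1, 83.7 and 53.5 CPM (1.38, SE 0.28, adjusted p = 0.0202). Each of the 3 was lost without some mouse. Cxcl10 did not pass without Young A, Young B, Young C or Aged C (adjusted p from 5.85e-06 to 0.0929), Cxcl16 without Young A, Young B or Aged C (0.000472 to 0.0842), and Cx3cl1 without Young A, Young C or Aged C and after thinning to equal totals (0.000566 to 0.0976). Cxcl1 and Cxcl2 were not called in AV cells, in which the young mice were far apart. Cxcl1 had 59.4, 394 and 1541 CPM in young and 914, 2156, 823 and 411 CPM in aged mice (0.91, SE 0.82, adjusted p = 0.563), and Cxcl2 13.8, 216 and 405 and 300.3, 695, 194 and 66.1 CPM (0.77, SE 0.88, adjusted p = 0.662). The change in myoepithelial cells exceeded that in AV cells by 4.02 (SE 0.82, adjusted p = 0.00509) for Cxcl1 and by 4.66 (SE 1.00, adjusted p = 0.00748) for Cxcl2, in a comparison where 9.25% of genes passed. Without Young C neither of these differences passed, nor did that of Cxcl2 without Young B (adjusted p from 1.00e-46 to 0.0673 for Cxcl1 and 1.00e-48 to 0.0801 for Cxcl2). Against vascular endothelial cells the myoepithelial change was larger by 2.77 (SE 0.31, adjusted p = 9.89e-07) for Cxcl1 and 3.92 (SE 0.53, adjusted p = 1.23e-05) for Cxcl2, where 15.3% of genes passed, and these held under all 10 alternatives.

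Cxcl15 and Cxcl12 fell in AV cells from levels under 40 CPM. Cxcl15 had 31.2, 30.6 and 19.0 CPM in young and 3.29, 6.28, 0.682 and 5.32 CPM in aged mice (-2.46, SE 0.51, adjusted p = 0.0201). The markers of HS cells, where Cxcl15 had over 400 CPM in every mouse, fell in AV cells in parallel. All 4 were called, from Pgr by -2.99, SE 0.41, adjusted p = 0.00292 to Cited1 by -1.60, SE 0.31, adjusted p = 0.016, and their sum was 188.1 to 273 CPM in young and 28.8 to 37.6 CPM in aged mice. Cxcl12 had 29.4, 18.0 and 8.68 CPM in young and 4.77, 1.79, 2.45 and 4.03 CPM in aged AV cells (-2.24, SE 0.46, adjusted p = 0.0205), and fibroblast markers fell beside it (4 of 4 called, sums of 27.0 to 166.8 CPM in young and 2.18 to 5.26 CPM in aged mice). In HS cells too Cxcl12 was called lower (11.7, 36.6 and 17.7 CPM in young and 4.88, 2.43, 5.43 and 5.91 in aged mice, -2.21, SE 0.49, adjusted p = 0.0264), and fibroblast markers there summed to 8.49 to 75.8 CPM in young and 0 to 5.69 CPM in aged mice. The part of RNA from other cells in these falls was not tested. Cxcl15 in AV cells did not pass without any 1 of the young mice (adjusted p from 0.000185 to 0.0862). Cxcl12 did not pass in AV cells without Young A, Young B or Aged C (0.000386 to 0.131), and in HS cells under 7 of 13 alternatives, among them without Young B, Young C or any 1 of the aged mice (2.95e-08 to 0.0602). The change of Cxcl15 in AV cells minus that in HS cells was -2.93 (SE 0.34, adjusted p = 5.70e-05), in a comparison where 2.41% of genes passed, and this held under all 10 alternatives.

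**Figure D4:**
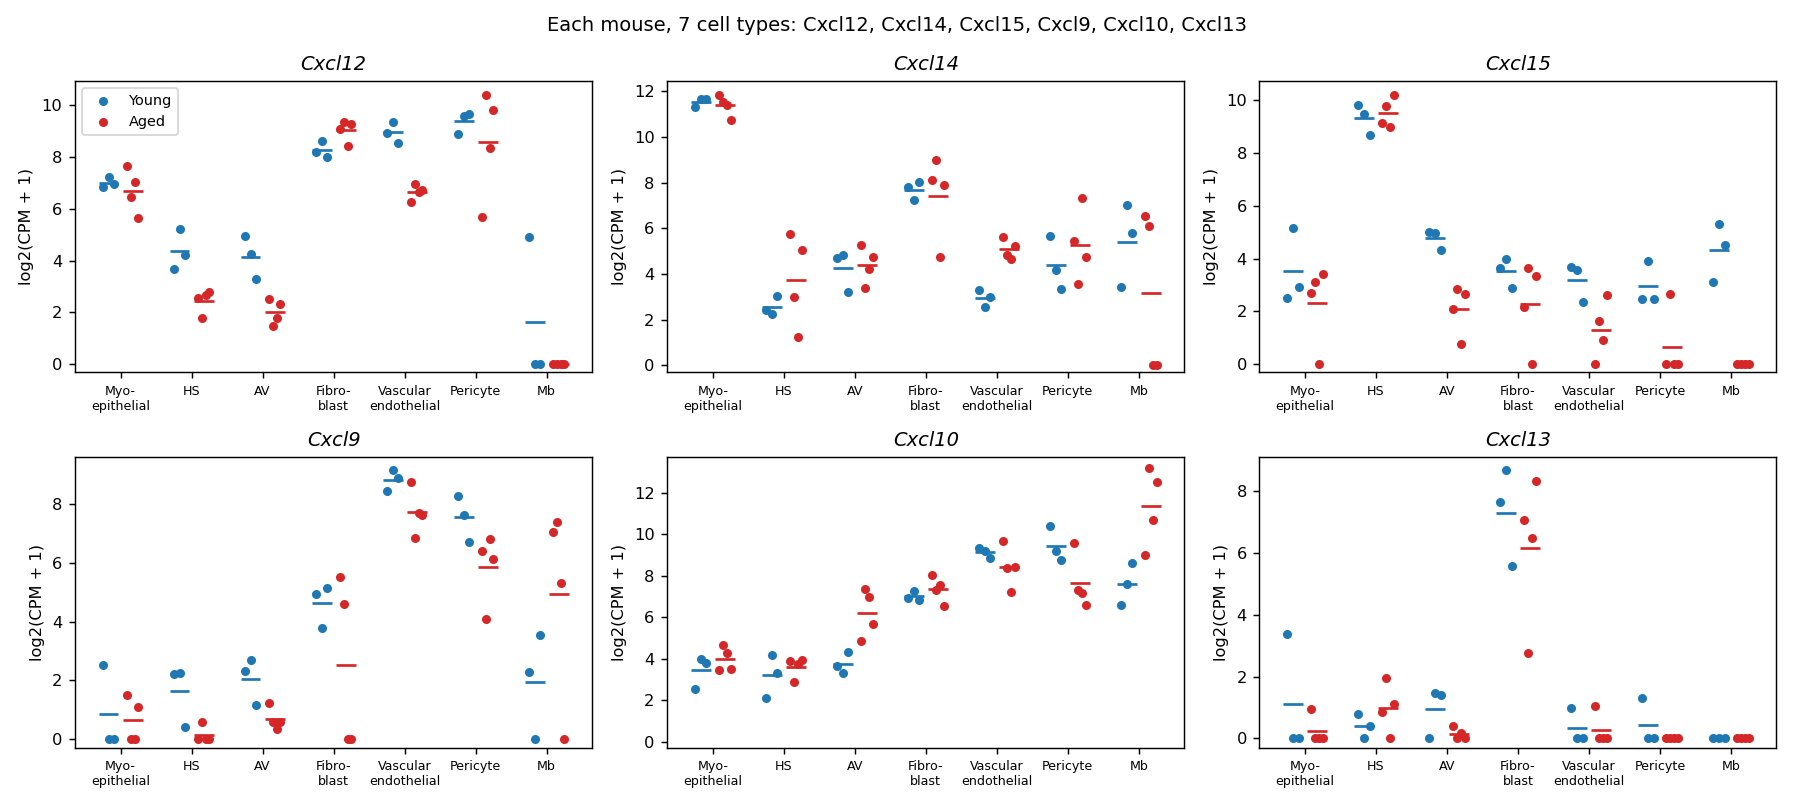
Each point is 1 mouse and shows log2(CPM + 1) of Cxcl12, Cxcl14, Cxcl15, Cxcl9, Cxcl10 or Cxcl13 in the 7 cell types tested, with young mice in blue, aged mice in red and lines at the group means of the plotted values. Cxcl12 in vascular endothelial cells is lower in all 4 aged mice, whereas Cxcl14 in myoepithelial cells and Cxcl15 in HS cells overlap between the ages.

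In fibroblasts 3.17% of 5513 genes were called and 0 of the 8 members tested. At an unadjusted p under 0.05 edgeR had 3 of the 8, and 1102 of all 5513 genes. By DESeq2 2 of the 8 passed, Cxcl2 and Cxcl12, and the share of all genes that passed by DESeq2 is not given. Cxcl1, at a high level in every mouse, had 843, 864 and 2258 CPM in young and 3237, 1174, 3431 and 631 CPM in aged mice (0.75, SE 0.50, adjusted p = 0.454). Cxcl2 was higher in 3 of 4 aged mice than in any young mouse but missed the threshold (48.3, 36.9 and 139 CPM and 417, 92.0, 355 and 174 CPM, 1.87, SE 0.51, adjusted p = 0.0677). Cxcl13, the chemokine that draws B cells, varied from 47.3 to 412 CPM among young and from 5.75 to 320.0 CPM among aged mice (-0.61, SE 0.73, adjusted p = 0.705). The aged mice had 121, 41, 15 and 17 fibroblasts against 581, 184 and 1034 in the young, which limits the changes that can be detected. The rise of Cxcl1 in vascular endothelial cells was larger than in fibroblasts by 2.23 (SE 0.49, adjusted p = 0.00777) and that of Cxcl14 by 2.18 (SE 0.51, adjusted p = 0.0125).

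In Mb macrophages 1.16% of 859 genes were called and 1 of 4 members, Cxcl2. It had 6071, 11909.6 and 8501 CPM in young and 19716, 38632, 37406 and 53089 CPM in aged mice (2.40, SE 0.44, adjusted p = 0.0405), with no overlap. The aged mice had only 9, 6, 4 and 3 of these cells and the young 90, 16 and 18. Without any 1 of the young mice, or of Aged B, C and D, the call was lost (adjusted p from 9.64e-05 to 0.184). Stress genes summed to 4503 to 7099 CPM in young Mb macrophages and to 4834, 23573, 4763 and 18529.9 CPM in Aged A to D. Interferon targets summed to 549 to 2085 CPM in young and to 825, 16261, 4608 and 11602 CPM in aged mice. Aged B and D were the highest in both lists, and the part of this in the changes of the chemokines was not tested. Cxcl10 also separated the groups, 94.3, 195 and 399 CPM against 511, 9416, 1665 and 5944 CPM, but did not pass (4.64, SE 1.06, adjusted p = 0.0858), and neither did Cxcl16 (1080.1, 977 and 1154 and 1258, 1169, 1588 and 1722 CPM, 0.72, SE 0.26, adjusted p = 0.181) or Cxcl1 (2.29, SE 0.61, adjusted p = 0.117), for which Aged B lay among the young mice.

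Over the 7 types, 22 of the 48 tested combinations were called, 17 higher and 5 lower in aged mice, where 1.16% to 27.6% of all genes were called by type. Cxcl2 was called higher in 5 types, Cxcl1 in 4 and Cxcl16 in 4, and Cxcl12 lower in 3. The count of calls fell to 13 without Young A and to 13 without Young B, and the share of all genes called in those fits is not given. Between vascular endothelial cells and pericytes the change of Cxcl16 differed by 2.73 (SE 0.49, adjusted p = 0.000407). It rose in the first and was 27.1, 56.6 and 50.3 CPM in young and 28.3 CPM as a mean in aged pericytes. In pericytes alone Cxcl16 did not pass the filter on low counts, so its age change there was not tested. The aged mice had 24, 46, 28 and 20 pericytes, so these values rest on few UMIs. Cxcl1 rose more in endothelial cells than in pericytes, by 1.77 (SE 0.28, adjusted p = 0.000103).

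The receptors of these chemokines were sparse. Cxcr1 and Cxcr5 had 0 CPM in every type as means over mice, and Cxcr2, the receptor of Cxcl1 and Cxcl2, at most 1.00 CPM. Cxcr3 was highest in T and B cells (22.5 ± 25.3 CPM), as was Cxcr6, the receptor of Cxcl16 (217 ± 193 CPM, followed by NK cells with 112.0 ± 84.8, n = 5). Cxcr4 was highest in Ma macrophages (205 ± 112.0 CPM, n = 3) and Cx3cr1 was at 67.0 ± 44.5 CPM in Mb macrophages. In HS-AV cells 1 aged mouse had 478 CPM of Cx3cr1 and the other 5 mice at most 1.60 CPM. The atypical receptor Ackr1, which takes up chemokines of several kinds on venules, changed in vascular endothelial cells, from 319.8 ± 50.5 CPM (mean ± SD, n = 3) to 1978 ± 433 CPM (n = 4; log2 change 2.99, SE 0.20, adjusted p = 7.79e-07). Of 9 receptors it was 1 of 2 tested in that type, beside Ackr3, the scavenger of Cxcl12 (-0.84, SE 0.54, adjusted p = 0.268). The receptors tested in AV cells, fibroblasts and pericytes had adjusted p of 0.214 or more. Of the proteases, Adam10 fell in myoepithelial cells (23.3 ± 3.89 to 6.73 ± 3.60 CPM, -1.69, SE 0.39, adjusted p = 0.00405) and in AV cells (26.2 ± 4.09 to 8.57 ± 2.57 CPM, -1.38, SE 0.25, adjusted p = 0.0112), types in which its substrate Cxcl16 rose. In HS and vascular endothelial cells, where Cxcl16 also rose, Adam10 was not called (-0.34, SE 0.21, adjusted p = 0.357 and -0.08, SE 0.21, adjusted p = 0.802). Among other CXC ligands Pf4, a macrophage gene here with 2089 ± 492.7 CPM in Ma macrophages, fell in AV cells from 3.60 ± 1.63 to 0.0814 ± 0.0940 CPM (-5.19, SE 0.77, adjusted p = 0.00406), beside 2 of 2 tested macrophage markers that also fell.

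Targets of NF-kB, a factor known to induce Cxcl1 and Cxcl2, were called higher in epithelial and endothelial cells. In myoepithelial cells 8 of 9 rose (median log2 change 1.76, against 0.01 over all genes tested), led by 2.77, SE 0.56, adjusted p = 0.00172 for Tnfaip3 and 2.26, SE 0.33, adjusted p = 0.000144 for Nfkbiz. In vascular endothelial cells 9 of 9 rose (median 1.32 against -0.05), led by Icam1 (2.51, SE 0.25, adjusted p = 1.28e-05) and Tnfaip3 (1.58, SE 0.24, adjusted p = 0.000278). In HS cells 5 of 9 were called higher (median 1.28) and in AV cells 3 of 9 (median 1.00). In fibroblasts (9 tested) and pericytes (8 tested) the medians were 0.25 and -0.09, and the lowest adjusted p of a target was 0.0974 and 0.0767. In Mb macrophages (6 tested) the median was 1.42 and the lowest adjusted p 0.0858, and 5 had an unadjusted p under 0.05. Of all genes tested, 863 of 6740 were called higher in myoepithelial and 1155 of 7864 in vascular endothelial cells. In HS cells these were 332 of 8457 and in AV cells 319 of 11012. The list was chosen with earlier results of these data known. A link between these targets, or the letters in the promoters, and the changes of Cxcl1 and Cxcl2 was not tested.

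Interferon targets went the other way in the vessel wall. In vascular endothelial cells 6 of 9 tested fell (median -1.05), led by Ifit1 (-2.39, SE 0.26, adjusted p = 2.71e-05) and Irf7 (-1.91, SE 0.31, adjusted p = 0.000471), and in pericytes 4 of 7 fell (median -1.03). Of all genes tested, 944 of 7864 were called lower in the endothelial cells and 120 of 2601 in pericytes. In AV cells, where Cxcl10 and 319 of all 11012 genes rose, 2 of 8 rose, Ifit1 (3.62, SE 0.81, adjusted p = 0.0287) and Irf1 (2.62, SE 0.30, adjusted p = 0.00122). S100a8, a neutrophil marker, went with them in AV cells without being called, and the neutrophil markers there summed to 0 to 0.826 CPM in young and 1.77 to 19.9 CPM in aged mice. Genes that dissociation is known to induce, such as Fos, Jun and the heat-shock gene Hspa1a, were read beside the members. Of the 16, 2 rose and 3 fell in myoepithelial cells, led by Ier3 (1.72, SE 0.21, adjusted p = 4.73e-05) and Fosb (-1.30, SE 0.29, adjusted p = 0.00377), and their sum was 7992 to 12529 CPM in young and 8742 to 12479 CPM in aged mice. In vascular endothelial cells 3 rose and 3 fell, and in pericytes 6 rose and 1 fell (187 and 120 of all 2601 genes), led by Hspa1a (1.65, SE 0.35, adjusted p = 0.00848) and Hspa1b (1.44, SE 0.41, adjusted p = 0.0336). Their sum in pericytes was 18887 to 22819 CPM in young and 21384 to 28729.6 CPM in aged mice, and its part in the rise of Cxcl1 and Cxcl2 there was not tested.

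Genes with patterns most like each member were found over 58 sums of mouse and cell type of at least 10 cells, as Pearson's r of log2(CPM + 1) among 7380 genes. They describe sums that share mice and cell types. Cxcl12 followed Sparc (r = 0.95), Ltbp4 (0.91) and Ppic (0.90), and Cxcl9 followed Kdr (0.91), Adgrl4 (0.91) and C1qtnf9 (0.91). Cxcl15 was most like Tmem56 (0.92), Prlr (0.90) and Cdo1 (0.89), and Cxcl14 like Krt14 (0.82), Wnt10a (0.82) and Speer4e (0.78). For Cxcl10 the nearest were the interferon targets Isg15 (0.83), Ifit3 (0.83) and Ifit1 (0.81). Cxcl13 was nearest to Pcolce2, Akr1c18 and Tmeff2 (0.85, 0.85 and 0.84). The other 4 members had weaker matches, Sqstm1 (0.77), Ifrd1 (0.71) and Rnf19b (0.66) for Cxcl1, Tlr2 (0.79), Ccrl2 (0.77) and Ftl1 (0.77) for Cxcl2, Shroom3 (0.78), Mrps6 (0.77) and Hsp90ab1 (0.77) for Cx3cl1, and Cxcl2 itself (0.73), Tlr2 (0.72) and Tnpo3 (0.71) for Cxcl16.

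Where the UMIs of a chemokine came from depended on both its level and the number of cells of a type captured, and these cannot be told apart in a summed gland. Fibroblasts gave 55.1% ± 14.2 of the Cxcl1 UMIs in young mice (mean ± SD, n = 3), and AV cells 49.3% ± 23.6 with myoepithelial cells 31.4% ± 22.7 in aged mice (n = 4). For Cxcl2, Mb and Ma macrophages gave 46.6% ± 29.2 and 23.3% ± 7.20 in young mice, and myoepithelial and AV cells 40.6% ± 26.7 and 32.5% ± 21.0 in aged mice. Cxcl16 came from Mb macrophages at 26.4% ± 22.5 in young and from AV cells at 68.4% ± 13.3 in aged mice, and Cx3cl1 from AV cells at 28.2% ± 7.98 and 75.9% ± 8.96. Cxcl15 stayed with HS cells (87.1% ± 8.61 and 94.6% ± 2.65), Cxcl9 with vascular endothelial cells (73.7% ± 15.3 and 91.3% ± 3.40) and Cxcl14 with myoepithelial cells (65.3% ± 20.4 and 91.9% ± 3.84). Cxcl13 came from fibroblasts at 96.0% ± 3.57 in young and 73.2% ± 39.5 in aged mice. In Aged B, with 7 Cxcl13 UMIs in all, 14.3% came from fibroblasts and 85.7% from HS cells.

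**Figure D5:**
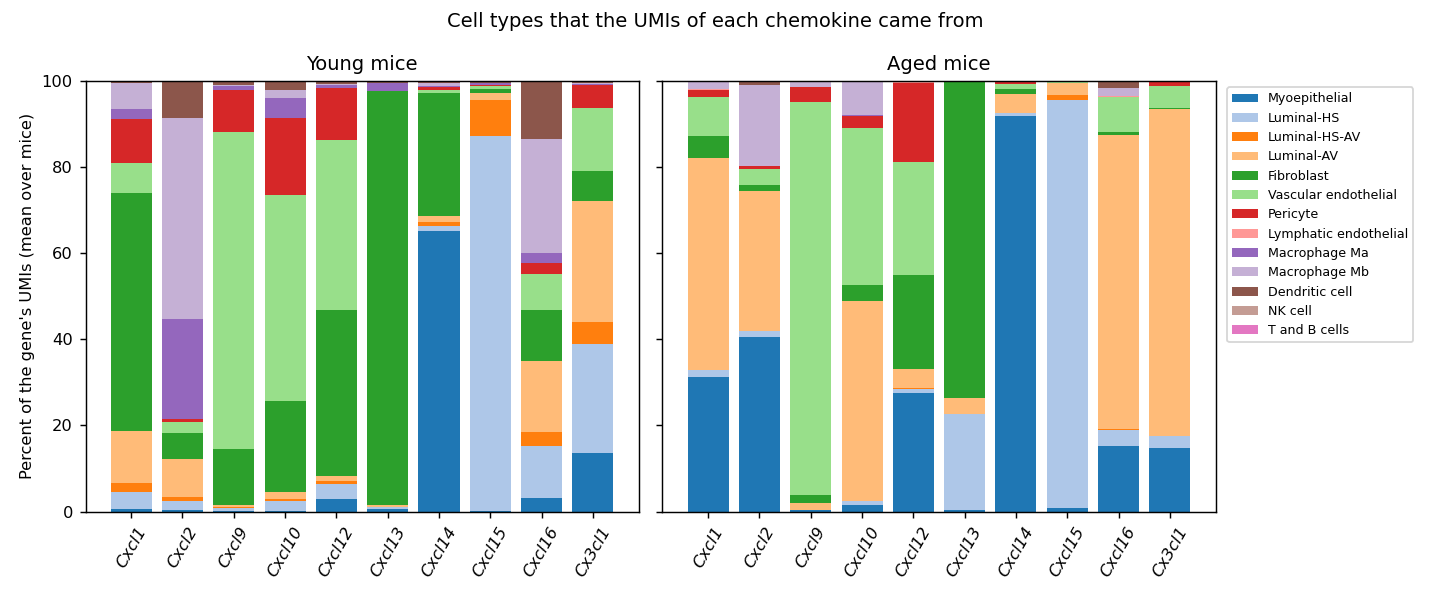
Bars split the UMIs of each chemokine by the cell type they came from, as percent averaged over the 3 young (left) and 4 aged (right) mice. Cxcl1 goes from mostly fibroblasts (55.1%) to AV (49.3%) and myoepithelial cells (31.4%), and Cxcl15 stays with HS cells.

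With all cells of a mouse added up, 32.7% of 12983 genes were called with age, and 8 of the 10 chemokines. Cx3cl1 (2.30, SE 0.21, adjusted p = 0.000601), Cxcl16 (1.91, SE 0.22, adjusted p = 0.00105), Cxcl1 (1.62, SE 0.50, adjusted p = 0.0323), Cxcl2 (1.42, SE 0.33, adjusted p = 0.012) and Cxcl14 (1.33, SE 0.36, adjusted p = 0.0206) were higher in aged mice. Cxcl13 (-3.33, SE 0.81, adjusted p = 0.0139), Cxcl12 (-1.79, SE 0.31, adjusted p = 0.00373) and Cxcl15 (-1.07, SE 0.34, adjusted p = 0.0362) were lower, and Cxcl9 (-1.45, SE 0.56, adjusted p = 0.0718) and Cxcl10 (-0.20, SE 0.32, adjusted p = 0.647) did not pass. When the 8 tested types were given the same shares in every mouse, several of these differences shrank or turned. The log2 ratio of mean CPM went from 0.98 to -0.03 for Cxcl14, from -1.42 to 0.07 for Cxcl15, from -2.14 to -0.40 for Cxcl12 and from -3.64 to -0.71 for Cxcl13. It turned from -0.57 to 0.55 for Cxcl10 and went from -1.81 to -0.97 for Cxcl9. It was 1.31 and 1.33 for Cxcl1, 1.07 and 1.98 for Cxcl2, 1.57 and 1.33 for Cxcl16 and 1.96 and 0.92 for Cx3cl1. The 8 types include Mb macrophages, with only 9, 6, 4 and 3 cells in the aged mice. Their mean Cxcl10 was 230 CPM in young and 4384 CPM in aged mice. Ma macrophages and dendritic cells, which gave 23.3% and 8.55% of the Cxcl2 UMIs in young mice, are not among the 8. The part of these types in the ratios was not tested. Without Young B 5 of the 10 members were called in the sums, and the share of all genes called in that fit is not given. The calls lost without single mice were Cxcl1 (Young A, Young B, Aged B or Aged D, adjusted p from 0.00177 to 0.0948), Cxcl14 (Young B or Young C, 0.00127 to 0.0671) and Cxcl15 (Young A, Young B or Aged A, 0.00793 to 0.107).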

How the data were processed

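The authors mapped droplet reads of 7 mice, 1 library each, to mm10 with Cell Ranger 2.0, filtered the cells and deposited the unnormalized counts of UMIs with a type assigned to each cell. They also deposited the mitochondrial fraction of each cell. For each mouse, the counts of a type (at least 3 cells) were added up and fitted with edgeR 4.0.16 (filterByExpr, TMM, quasi-likelihood test, Benjamini-Hochberg over all genes tested) in R 4.3.3, with DESeq2 1.42.0 as an alternative. Differences of age changes between types used an age by type interaction with the mouse as a block. Shares of cells were computed after thinning each cell to 2000 UMIs. The authors estimated doublets with Scrublet and DoubletFinder; a removal of the predicted cells is not given in the sources used here, and no doublet caller was run on the deposited cells. The fits were checked on simulated counts. The named genes are the 10 members, the related ligands, receptors and proteases that were called, the receptors of the members, the 2 genes of the NF-kB, interferon and stress lists with the largest change in a type, and the 3 genes most like each member. The members and lists were chosen with earlier results of these data known. The mice are separate animals. No depth interval is given, since comparisons rest on the spread between mice, and a low count in a small cell type is not evidence of absence.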

Additional observations from a re-analysis of the deposited data

Results flagged for a closer look

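In 2 of the 48 groups of 4 aged mice, 1 mouse lay apart from the others by Dixon's criterion, which chance passes in about 1 of 20 groups. Cxcl10 in pericytes was 758 CPM in Aged A and 94.3 to 158.9 CPM in the other aged mice. Cxcl1 in Mb macrophages was 868 CPM in Aged B, from 6 cells, and 6157 to 6776 CPM in the other aged mice.

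The age change differed between 2 cell types in 16 of 43 comparisons, by an interaction test in edgeR with the mouse as a block (adjusted p over all genes). Of all genes, 2.41% to 15.3% passed by pair of types. For myoepithelial minus AV cells the difference on the log2 scale was 4.02 for Cxcl1 (adjusted p = 0.00509), 4.66 for Cxcl2 (0.00748), 2.27 for Cxcl12 (0.00704) and 2.06 for Cxcl15 (0.039). The last of these was lost under 8 of 10 alternatives, among them without Young A, without Young C and without any 1 of the aged mice (adjusted p from 0.0148 to 0.377), and that of Cxcl12 without Young A (adjusted p from 2.43e-07 to 0.119). For AV minus HS cells Cxcl15 differed by -2.93 (5.70e-05). For myoepithelial minus vascular endothelial cells the differences were 2.77 for Cxcl1 (9.89e-07), 3.92 for Cxcl2 (1.23e-05), 1.77 for Cxcl12 (0.000878) and -2.58 for Cxcl14 (7.82e-06). For vascular endothelial cells minus fibroblasts they were 2.23 for Cxcl1 (0.00777), -2.89 for Cxcl12 (7.86e-07) and 2.18 for Cxcl14 (0.0125). For vascular endothelial cells minus pericytes they were 1.77 for Cxcl1 (0.000103), 1.24 for Cxcl10 (0.0158), -1.78 for Cxcl12 (0.00929) and 2.73 for Cxcl16 (0.000407). That of Cxcl10 was lost with DESeq2, without Young A, without Aged B and without Aged D (adjusted p from 1.76e-05 to 0.279).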

How the results depend on the processing

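The 46 called results with a test were recomputed under each alternative, and 489 of these values kept the call, 79 kept the direction without the call and 0 changed direction, and 24 of the results kept the call throughout. The ratios at equal shares of the types, which have no test, are not among these values. The 22 calls with age became 25 with DESeq2, 33 with no filter on low counts, 17 with counts thinned to equal totals, 21 with at least 10 cells per mouse, and 13 to 24 without single mice, with 13 without Young A and 13 without Young B. The 16 differences between types became 14 with DESeq2, 23 with no filter and 12 to 19 without single mice. The 8 calls in all cells became 9 with DESeq2 and 5 to 8 without single mice, with 5 without Young B. Fewer mice were fitted in those settings, and the cause of the other changes was not tested. The shares of all genes called under the alternatives are not given. A change in the count of members therefore cannot be told apart from a change of the whole fit.

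Mice of the 2 ages share the letters A to C, which are only names. Deviations of mice with the same letter correlated at -0.174 to 0.372 over the types. They passed 0.1 for A in Mb macrophages (0.372) and for A and C in T and B cells (0.238 and 0.114), and in no type for all 3 letters, so the letters were not taken to pair mice. With the letters as a replicate block 21 calls with age and 6 in all cells passed. The calls of Cxcl12 and Cxcl16 in HS cells, Cxcl9 in pericytes and Cxcl1 and Cxcl2 in all cells were lost under it, and Cxcl12 was 0.15 and Cxcl14 0.13 in myoepithelial cells and Cxcl12 -0.70 in pericytes.

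Directions that turned were of results not called, or of ratios with no test. The ratios that turned include those of Cxcl14 and Cxcl15, which were called in all cells. Cxcl12 in myoepithelial cells was 0.0484 with no filter, 0.0445 with thinned counts and -0.44 to 0.14 without single mice. Cxcl14 there was 0.13 with no filter and -0.15 to 0.10 without single mice. Cxcl9 in fibroblasts was -0.12 with DESeq2, -0.032 with no filter and -1.26 to 0.43 without single mice. Without single mice the ranges were -0.0827 to 0.85 for Cxcl10 in HS cells, -1.21 to 0.25 for Cxcl13 in fibroblasts, -0.69 to 0.17 for Cxcl10 in vascular endothelial cells, -0.51 to 0.49 for Cxcl12 in pericytes and -0.55 to 0.0548 for Cxcl10 in all cells. With equal shares of the 8 types the log2 ratio of mean CPM was -0.03 for Cxcl14, 0.0744 for Cxcl15 and 0.55 for Cxcl10. Types with few cells, such as Mb macrophages and T and B cells, limit what could be detected.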
